A study of Mus musculus with 12 samples.

Results

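Genes for 10 cytokine receptors other than the IL-2 receptor chains and Il7r were followed across regulatory T cells (Tregs), a CD4 T cell lineage that depends on the factor Foxp3 and holds other immune cells in check. They were taken by gene symbol as Il1rl1, Il18r1, Il1r2, Il10ra, Il6ra, Il6st, Il4ra, Il21r, Ifngr1 and Tgfbr2, and all 10 were found among the 23361 genes listed in the deposited table. The libraries fall into 4 groups of 3: Lag3-deficient Tregs from pancreatic islets (called Lag3 islet), wild-type Tregs from islets (Wt islet), Lag3-deficient Tregs from non-draining lymph nodes (Lag3 NDL) and wild-type Tregs from those nodes (Wt NDL). All came from a mouse model of autoimmune diabetes, in which T cells attack the islets. Lag3 is an inhibitory receptor that binds MHC class II. The sources used here name no strain, age or sorting markers, nor the way Lag3 was removed. The labels do not tie the 3 libraries of a group to separate animals or cultures, and p-values then measure only the spread between these libraries, which may be technical.

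Cytokine receptors set which signals from a tissue a Treg can read. Receptors of the IL-1 family, such as the IL-33 receptor ST2, sense alarmins released by damaged cells and signal through MyD88, and ST2 is well known on Tregs of non-lymphoid tissues, where IL-33 promotes their accumulation and their production of amphiregulin. Class I and class II cytokine receptors signal through JAK kinases and STAT factors, and the TGF-beta receptor through SMAD factors.

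The libraries differed from each other in ways that touch these genes. The deposited whole numbers are rescaled, with column totals from 15232498 to 15370098, so depth cannot be read from them, and values are given as CPM, each gene's share of its column total after scaling by trimmed means of log ratios (TMM). In Lag3 islet 2 only 2 genes are listed at 1 and 1 gene at 2, against 3232 at 3, and in Wt NDL 2 a single gene is listed at 1 against 3036 at 2, so low values in these libraries are coarser than in the others. Each group has columns numbered 1, 2 and 1 again, written 1a, 2 and 1b; Rn45s, which encodes ribosomal RNA, takes 1.26 to 1.68% of the total in the 4 columns called 1b and 0.149 to 0.571% in the other 8. Treg markers were present in every library, with Foxp3 at 224 to 483 CPM in islet and 311 to 654 CPM in NDL libraries and Ctla4 at 1825 to 3371 and 242 to 544 CPM. Lag3 was listed at no more than 0.0754 CPM in Lag3 islet libraries, against 2.76 to 8.14 CPM in Wt islet libraries, and at no more than 0.225 CPM in Lag3 NDL libraries, against 0.123 to 0.435 CPM in Wt NDL libraries. Myeloid markers, 10 of the 11 on the list being in the table, summed to 14.4 to 119 CPM in islet and 0.192 to 37.5 CPM in NDL libraries, with single genes high in single libraries: Lyz2 reached 99.4 CPM in islets (Wt islet 1a) and 35.6 CPM in NDL (Lag3 NDL 2), Cd68 32.3 and 1.58 CPM, Csf1r 31.0 and 0.126 CPM, and Itgam 1.06 and 0.144 CPM. B cell markers, all 10 in the table, summed to 254 to 1067 CPM in islet and 54.4 to 194 CPM in NDL libraries with Pax5 at 0 in all. The immunoglobulin J chain gene Igj, at 79.2 to 531 CPM in islet and 0 to 3.07 CPM in NDL libraries, and Cd74, at 137 to 389 and 2.10 to 128 CPM, carried the islet sums, whereas the medians of Cd79b were 21.9 and 35.1 CPM and those of Cd22 0.623 and 2.06 CPM. CD8 and NK cell markers (10 of 10) summed to 70.3 to 443 and 21.5 to 115 CPM, of which Nkg7 alone gave 50.7 to 440 and 19.1 to 104 CPM, and exocrine pancreas markers (15 of 15, with Amy2a5 at 0 in all) to 34.9 to 3349 and 0 to 4.91 CPM. Stroma and endothelium markers (10 of 10) summed to 5.22 to 217 CPM in islet and 6.95 to 114 CPM in NDL libraries. In Lag3 islet 1b Dcn stood at 76.3 and Col3a1 at 51.5 CPM, whereas Pecam1 gave 5.87 to 113 CPM in NDL libraries. Endocrine pancreas markers (16 of 16) summed to 3.63 to 257 and 1.05 to 94.0 CPM. Gcg reached 148 CPM in islets (Wt islet 1a) and Scg5 93.2 CPM in NDL (Wt NDL 1b). The part of such cells in the receptor values was not tested. In bulk libraries fewer cells of a type and less RNA per cell cannot be told apart.

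None of the 10 receptors passed the threshold in any of the 6 comparisons made with limma (adjusted p under 0.05 by the Benjamini-Hochberg method over 10868 genes). With voom weights 0 passed as well. The widest separations were between tissues. Ifngr1 was higher in all 6 islet libraries than in any of the 6 NDL libraries, about 2.10-fold, and Il1r2 was about 5.07-fold higher in islets with overlapping libraries. Both kept adjusted p-values above the threshold.

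Promoter sequences are shown for the 2 genes with the widest tissue separation, and for Il1rl1 because its starts are known as a distal and a proximal promoter used in different cell types. They come from RefSeq on GRCm38.p6, from 250 bases before to 50 bases after a start, and 9 of the 10 genes had an entry. Which motif is shown for which gene was chosen after the sequences were searched. Il1rl1 has 2 annotated starts on chromosome 1, plus strand. Capitals mark GATA preceded by A or T and followed by A or G, on either strand, the letters that GATA factors such as the Treg factor Gata3 read. The distal promoter, chr1:40429320-40429619, holds 5 matches and the proximal one, chr1:40439379-40439678, holds 1.
Il1rl1 distal: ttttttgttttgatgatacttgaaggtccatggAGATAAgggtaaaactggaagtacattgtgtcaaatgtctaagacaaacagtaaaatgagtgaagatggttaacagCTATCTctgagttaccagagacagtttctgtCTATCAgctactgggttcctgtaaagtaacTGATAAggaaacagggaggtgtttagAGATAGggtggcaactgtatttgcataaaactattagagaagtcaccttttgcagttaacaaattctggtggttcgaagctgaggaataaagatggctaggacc
Il1rl1 proximal: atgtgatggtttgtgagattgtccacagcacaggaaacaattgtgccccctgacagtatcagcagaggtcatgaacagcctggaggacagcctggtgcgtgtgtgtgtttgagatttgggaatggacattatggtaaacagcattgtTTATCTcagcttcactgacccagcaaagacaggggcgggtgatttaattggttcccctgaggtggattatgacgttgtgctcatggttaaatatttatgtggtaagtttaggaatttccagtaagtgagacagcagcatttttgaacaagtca
Of 32851 promoters of this length in the table, 29.8% hold at least 1 such match and 0.0548% hold 5 or more. A match is a description of the letters and no evidence of binding. Gata3 itself measured 24.9 to 141 CPM in islet and 56.8 to 142 CPM in NDL libraries. For Il1r2, chr1:40085843-40086142, plus strand, the RefSeq start lies inside the gene as GENCODE annotates it, downstream of that annotation's first base at 40074079, around which no sequence was searched. Capitals in the RefSeq window mark CACGTG, the E-box read by basic helix-loop-helix factors, a palindrome that reads the same on both strands. For Ifngr1, chr10:19591699-19591998, plus strand, they mark GGGCGG on either strand, the GC box read by Sp factors.
Il1r2: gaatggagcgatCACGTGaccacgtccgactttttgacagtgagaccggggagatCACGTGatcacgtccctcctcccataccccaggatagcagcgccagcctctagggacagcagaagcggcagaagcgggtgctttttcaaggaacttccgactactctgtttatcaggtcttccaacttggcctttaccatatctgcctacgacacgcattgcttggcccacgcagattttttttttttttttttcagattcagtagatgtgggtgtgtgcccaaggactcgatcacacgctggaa
Ifngr1: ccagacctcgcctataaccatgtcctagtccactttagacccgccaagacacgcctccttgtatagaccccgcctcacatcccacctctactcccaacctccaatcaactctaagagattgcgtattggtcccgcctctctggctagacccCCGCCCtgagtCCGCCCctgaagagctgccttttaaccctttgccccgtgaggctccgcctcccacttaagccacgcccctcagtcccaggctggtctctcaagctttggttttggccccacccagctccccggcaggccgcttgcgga
Each holds 2 matches. At least 1 match stands in 7.15% of all promoters for CACGTG and in 35.7% for GGGCGG, and at least 2 in 0.594% and 19.5%. None of the 3 genes holds TGANTCA, the AP-1 letters, in these windows, which 7.81% of promoters hold on either strand. TTCNNNGAA, the letters read by STAT factors and the same on both strands, stands in 8.30% of promoters and has 1 match in the Il1r2 window and 0 in the other 3.

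The first receptors are those of the IL-1 family, whose genes lie side by side on chromosome 1 in the order Il1r2, Il1r1, Il1rl2, Il1rl1, Il18r1 and Il18rap, all on the plus strand (GENCODE M21, GRCm38). Il1rl1 (40429570 to 40465415) ends 136 bases before Il18r1 (40465552 to 40500854) begins. Il1rl1 encodes ST2, in a membrane form that signals and a soluble form that captures IL-33, and a count per gene does not separate them. It measured 41.1, 5.51 and 67.8 CPM in Lag3 islet libraries 1a, 2 and 1b, 15.0, 120 and 8.14 CPM in Wt islet libraries, 12.03, 29.3 and 66.8 CPM in Lag3 NDL libraries and 12.5, 6.72 and 25.4 CPM in Wt NDL libraries. Its lowest and its highest value both came from islets, in Lag3 islet 2 and Wt islet 2, and all 4 groups overlapped. The log2 difference of islet against NDL, averaged over genotypes, was 0.36 with a 95% interval from -1.39 to 2.11 (limma adjusted p = 0.915), and the 1b columns alone, 1 library per group, gave -0.76 against 0.92 in the others. With an SD within groups of 64.3 to 131% of the mean, Il1rl1 was with Il10ra the least precisely measured of the 10. Mast cells and group 2 innate lymphoid cells also carry ST2. Mast cell and basophil markers, all 8 in the table, summed to 0.069 to 1.39 CPM in islet and 0.225 to 7.57 CPM in NDL libraries with Mcpt4 and Mcpt8 at 0 in all, and innate lymphoid cell markers, all 7 in the table, to 33.0 to 279 CPM in islet and 70.3 to 168 CPM in NDL libraries. Of these 7, Il13 and Il5 were listed at no more than 0.0754 CPM in islet and 0.145 CPM in NDL libraries, whereas Gata3, Klrg1, Rora and Il17rb, of which Tregs are known to express the first 3, reached 141, 75.6, 59.1 and 25.6 CPM in islet and 142, 18.2, 37.6 and 5.30 CPM in NDL libraries. The part of such cells in the Il1rl1 values was not tested.

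Il18r1 encodes the ligand-binding chain of the IL-18 receptor. It measured 217, 108 and 132 CPM in Lag3 islets, 126, 85.9 and 181 CPM in Wt islets, 53.6, 54.9 and 109 CPM in Lag3 NDL and 56.8, 72.8 and 156 CPM in Wt NDL. Most islet libraries lay above most NDL libraries, yet the tissues overlapped through Lag3 NDL 1b and Wt NDL 1b. The difference between islets and NDL was 0.80 ± 0.40 (log2, SE), which did not pass in limma (unadjusted p = 0.0621, adjusted p = 0.466). Il18rap, the partner chain that IL-18 needs for signalling, was listed at no more than 2.49 CPM in islet libraries and between 0 and 90.3 CPM in NDL libraries, the top value being in Wt NDL 2.

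Il1r2 (40074079 to 40125231) encodes a decoy receptor that binds IL-1 without signalling and is known as a gene of activated effector Tregs. It measured 199, 53.0 and 208 CPM in Lag3 islets, 100.1, 94.6 and 45.2 CPM in Wt islets, 22.7, 32.6 and 1.57 CPM in Lag3 NDL and 22.2, 65.6 and 17.8 CPM in Wt NDL. The 3 Lag3 islet libraries all lay above the 3 Lag3 NDL libraries, whereas Wt islet 1b lay below Wt NDL 2. The log2 difference between islets and NDL was 2.34 ± 0.66, with a 95% interval from 0.95 to 3.73 and limma p-values of 0.00222 before and 0.12 after adjustment. Within Lag3-deficient cells it was 3.37 ± 0.94 (adjusted p = 0.228) and within Wt cells 1.31 ± 0.94 (adjusted p = 0.844), and the difference between these, 2.05 ± 1.33, did not pass (adjusted p = 1). The 1b columns alone gave a tissue difference of 3.82 and the other columns 1.60, Lag3 NDL 1b being the lowest library for this gene; without that library the averaged difference was 1.77 and that in Lag3-deficient cells 2.22. The signalling receptor for the same ligand, Il1r1, was listed at no more than 0.966 CPM in islet and 0.299 CPM in NDL libraries. Neutrophils also express Il1r2, and their markers, 7 of 8 in the table, summed to 5.06 to 20.6 CPM in islets and 2.46 to 14.9 CPM in NDL, with S100a8 listed at 0 in all libraries and S100a9 at no more than 0.0678 CPM; Cxcr2 made up most of these sums.

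**Figure D1:**
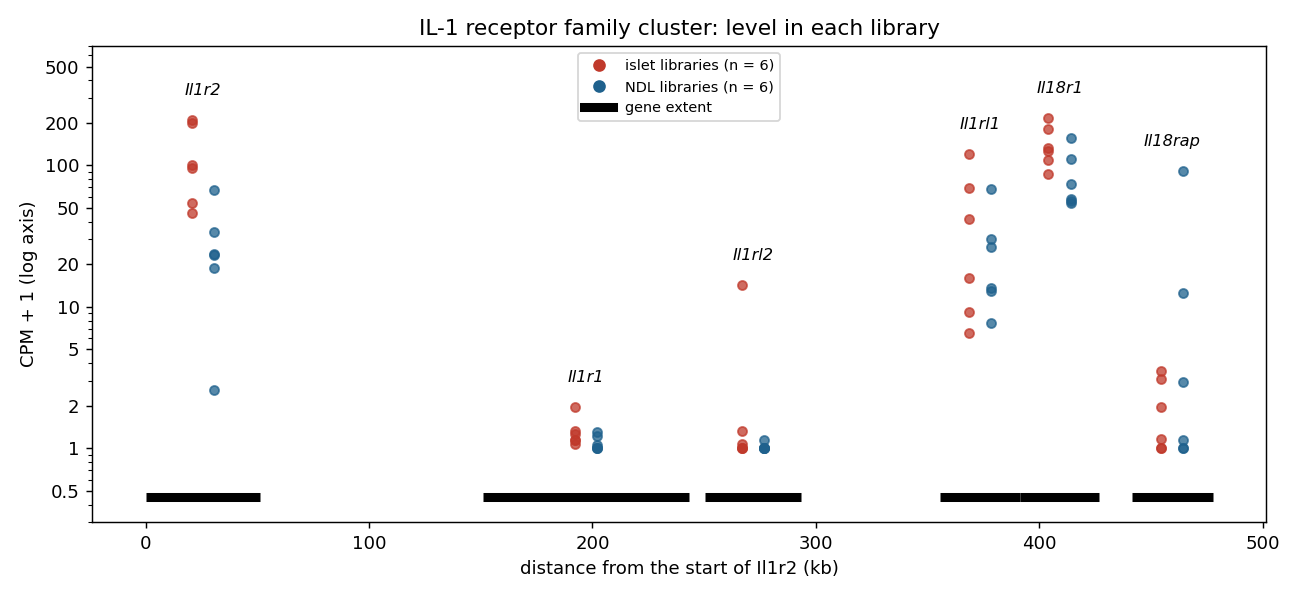
The IL-1 receptor family cluster on chromosome 1, with distance from the start of Il1r2 on the x axis in kb and CPM + 1 on a logarithmic y axis. Each point is 1 library, islet (red, left) or NDL (blue, right), and black bars show the extent of each gene. Il1r2, Il1rl1 and Il18r1 were above 1 CPM in all 12 libraries, whereas Il1r1 between them stayed below 1 CPM in each.

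Ifngr1 encodes the ligand-binding chain of the receptor for interferon-gamma (chromosome 10, 19591949 to 19610229, plus strand). It measured 194, 210 and 305 CPM in Lag3 islets, 196, 233 and 235 CPM in Wt islets, 154, 134 and 148 CPM in Lag3 NDL and 138, 67.1 and 53.0 CPM in Wt NDL. The lowest islet library, 194 CPM, stood above the highest NDL library, 154 CPM, and no other of the 10 genes separated the tissues in this way. The log2 difference was 1.07 ± 0.33, with a 95% interval from 0.38 to 1.77 and limma p-values of 0.00445 before and 0.176 after adjustment. It was 0.67 ± 0.47 in Lag3-deficient and 1.47 ± 0.47 in Wt cells (adjusted p = 0.724 and 0.33), and the difference between these was -0.80 ± 0.67. The 1b columns alone gave 1.58 and the others 0.81. Its partner chain Ifngr2 measured 9.57 to 20.7 CPM in islet and 0.898 to 46.6 CPM in NDL libraries, a range that held the islet values inside it. Summed myeloid markers had a median of 44.4 CPM in islet and 0.454 CPM in NDL libraries. Their ranges overlapped, at 14.4 to 119 CPM in islets and 0.192 to 37.5 CPM in NDL, and their part in the Ifngr1 value was not tested.

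Il6ra and Il6st encode the IL-6 receptor chain and gp130, its signalling subunit, which other cytokines share. Il6ra measured 77.3, 130.1 and 74.2 CPM in Lag3 islets, 72.2, 60.6 and 76.7 CPM in Wt islets, 121, 274 and 33.6 CPM in Lag3 NDL and 195, 81.0 and 199 CPM in Wt NDL. In Wt cells all islet libraries lay below all NDL libraries, and in Lag3-deficient cells the tissues overlapped, Lag3 NDL 1b being the lowest of the 12 and Lag3 NDL 2 the highest. The log2 difference of islet against NDL was -1.07 ± 0.66 in Wt and -0.20 ± 0.66 in Lag3-deficient cells (limma adjusted p = 0.801 and 0.951).

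Il6st measured 107, 143 and 77.6 CPM in Lag3 islets, 86.5, 27.4 and 81.5 CPM in Wt islets, 42.9, 61.1 and 15.9 CPM in Lag3 NDL and 78.8, 137 and 43.1 CPM in Wt NDL. Lag3 islet libraries lay above all Lag3 NDL libraries, while Wt islet and Wt NDL libraries overlapped. The log2 difference of islet against NDL was 1.57 ± 0.71 in Lag3-deficient cells (unadjusted p = 0.0375, limma adjusted p = 0.55) and -0.42 ± 0.71 in Wt cells (adjusted p = 0.971). The difference between the genotype effects of the tissues, 1.99 ± 1.00, had the smallest p of the 10 genes in that comparison, 0.0601 before and 1 after adjustment. Averaged over genotypes, Il6st differed between tissues by 1.56 in the 1b columns and by 0.09 in the others.

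Il4ra and Il21r lie beside each other on chromosome 7, 23954 bases apart on the plus strand. Il4ra, the IL-4 and IL-13 receptor chain that signals through STAT6, measured 87.5, 76.8 and 37.3 CPM in Lag3 islets, 49.1, 51.1 and 22.9 CPM in Wt islets, 48.7, 58.5 and 32.0 CPM in Lag3 NDL and 56.4, 98.7 and 130.3 CPM in Wt NDL. Wt islet libraries lay below all Wt NDL libraries (log2 difference -1.20 ± 0.67, limma adjusted p = 0.751), and Lag3 islet and Lag3 NDL libraries overlapped (0.48 ± 0.67). The averaged tissue difference was -1.12 in the 1b columns and 0.02 in the others. Il21r, which binds the T cell cytokine IL-21, was among the more even members, at 29.6 to 56.2 CPM in islets and 14.8 to 47.5 CPM in NDL (0.42 ± 0.56, adjusted p = 0.829).

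Il10ra, the ligand-binding chain for the suppressive cytokine IL-10, ranged most widely after Il1r2. It measured 21.8, 12.3 and 72.7 CPM in Lag3 islets, 54.0, 26.9 and 4.81 CPM in Wt islets, 10.02, 16.8 and 52.8 CPM in Lag3 NDL and 57.3, 13.6 and 2.25 CPM in Wt NDL. Every group held both low and high libraries, and the highest value was 32.4 times the lowest. Its tissue difference of 0.46 had a 95% interval from -1.38 to 2.30. Lag3 against Wt in islets came to 3.66 in the 1b columns and -1.17 in the others, and the same split gave 2.91 and -1.41 for Il1rl1. Tgfbr2, the TGF-beta receptor chain that binds the ligand, had the smallest ratio of highest to lowest library, 2.92, with values from 112 to 256 CPM in islets and 137 to 326 CPM in NDL (log2 difference -0.22, interval -0.93 to 0.48, limma adjusted p = 0.853; 1b columns -1.05, others 0.20).

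**Figure D2:**
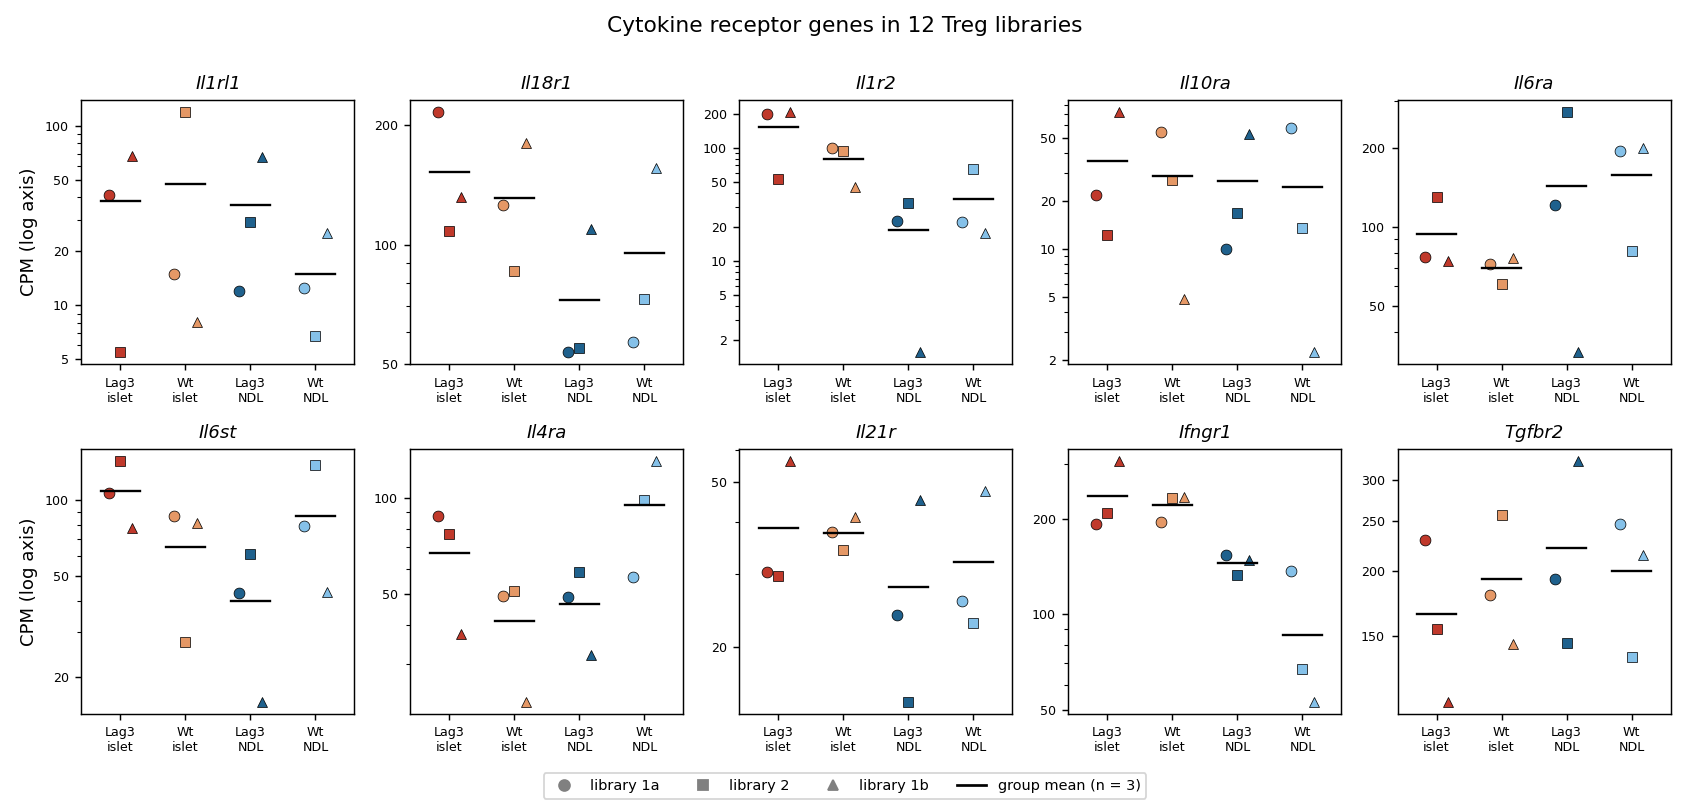
CPM of each receptor gene (logarithmic y axis, scaled per gene) in the 12 libraries, by group. Circles, squares and triangles are libraries 1a, 2 and 1b, and bars are the means of 3 libraries. Ifngr1 is the gene whose 6 islet libraries, 194 to 305 CPM, stand clear of the 6 NDL libraries, 53.0 to 154 CPM.

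Levels can be set against each other only per length, which assumes that reads cover all annotated exons of a gene evenly. The counting steps are not given and forms of a gene are not separated, so the order is a rough one. Per kb of exonic sequence (the union of GENCODE exons), the median over 12 libraries was 61.0 CPM per kb for Ifngr1, 25.7 for Il1r2, 22.7 for Tgfbr2 and 22.6 for Il18r1. It was 9.71 CPM per kb for Il21r, 9.16 for Il6ra, 8.96 for Il4ra, 7.04 for Il6st, 5.52 for Il10ra and 2.94 for Il1rl1. Each gene's range over the libraries overlapped that of the next gene in this order, so neighbours in it are not separated beyond their spread.

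Lag3 deficiency was compared with wild type first in islets, the question the series title raises. Of the 10 receptors 0 passed with limma, and 0 had an unadjusted p under 0.05, where the shares over all genes were 0% and 5.74%. For 0 of 10 did Lag3 and Wt islet libraries stand apart, which they did for 9.32% of all tested genes. Log2 differences were positive for 8 of 10, Il21r and Tgfbr2 being below 0, with a median of 0.30 against -0.22 over all genes, and adjusted p-values ran from 0.968 to 0.998. The median over all genes moved to -0.03 with RLE size factors, under which Il21r was above 0, and to -0.01 without Lag3 islet 2, the library with the most tested genes listed at 0 (927). Without Lag3 islet 1b, 15 of the 10868 genes passed in this comparison, none of them among the 10 receptors. Without all of the 1b columns 0 passed, so the 0% depends on which libraries are kept. The largest receptor difference was that of Il6st, a log2 difference of 0.86 with a 95% interval from -0.62 to 2.33. It stood at 109 ± 32.5 CPM in Lag3-deficient and 65.1 ± 32.8 CPM in Wt islets (SD, n = 3 each). Ifngr1 was the most tightly bounded, at 236 ± 60.2 and 221 ± 22.3 CPM, with a log2 difference of 0.07 and an interval from -0.91 to 1.05. The intervals of the other 9 genes were wider.

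In NDL, 0 of 10 receptors passed with limma and 0 had an unadjusted p under 0.05, against 0% and 2.72% of all genes, and for 0 of 10 the libraries stood apart, against 7.53%. The largest differences were -1.28 ± 0.94 for Il1r2, -1.13 ± 0.71 for Il6st and 1.09 ± 1.18 for Il1rl1. Ifngr1 had the smallest p, 0.0802 before adjustment and 1 after it, at 145 ± 10.4 CPM in Lag3 NDL and 86.0 ± 45.4 CPM in Wt NDL libraries, which overlapped. The difference of the genotype effect between islets and NDL passed for 0 of 10 genes, with 0 at an unadjusted p under 0.05, against 0% and 4.02% of all genes.

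Tissues were compared next, to describe receptors of Tregs at the site of disease. In Wt cells 0 of 10 passed with limma, against 0.184% of all genes, and 1, Ifngr1, had an unadjusted p under 0.05, against 7.53%. Wt islet and Wt NDL libraries did not overlap for 3 of 10 genes, Ifngr1 being higher and Il6ra and Il4ra lower in islets, where 14% of all genes did not overlap. In Lag3-deficient cells 0 passed, against 0.12%, and 2, Il1r2 and Il6st, had an unadjusted p under 0.05, against 8.71%. Libraries did not overlap for 3 of 10 genes, Il1r2, Il6st and Ifngr1, each higher in islets, against 12.7%. Averaged over genotypes 0 passed, against 0.92%, 2, Il1r2 and Ifngr1, had an unadjusted p under 0.05, against 11.3%, and 1, Ifngr1, had tissues that did not overlap, against 1.8%. The averaged comparison and those within each genotype share their libraries and are not independent. Counts of 1 to 3 among 10 genes are given beside these shares as a description, and nothing particular to the receptors is read from them.

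**Figure D3:**
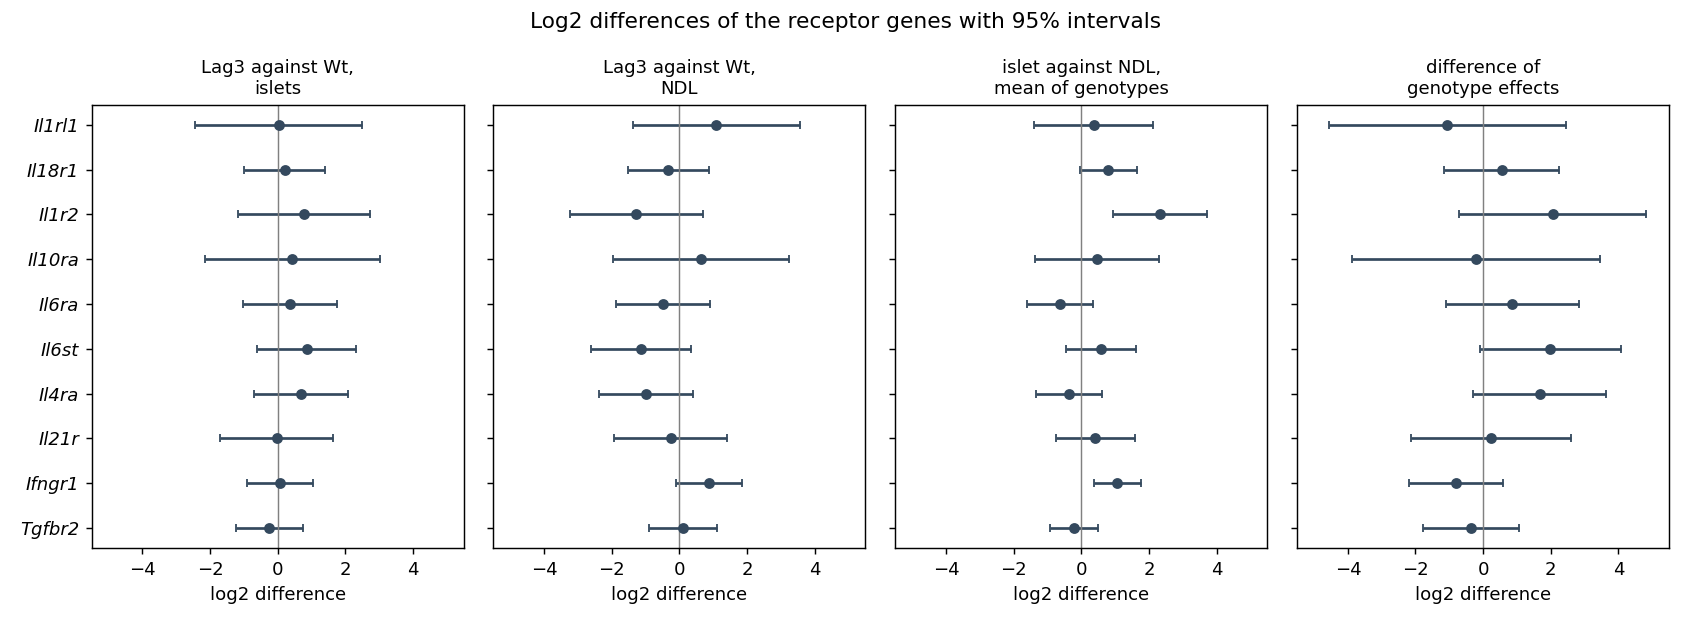
Log2 differences on the log2(CPM + 1) scale of the 10 receptor genes (points) with 95% intervals (bars) for Lag3 against Wt in islets and in NDL, for islet against NDL averaged over genotypes, and for the difference of the genotype effects. In the third panel the intervals of Il1r2, 0.95 to 3.73, and Ifngr1, 0.38 to 1.77, lie above 0 before adjustment for 10868 genes; in the other panels every interval includes 0.

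Genes that act with these receptors were taken from lists of known pathway members, and islet against NDL averaged over genotypes is given here. In Lag3 against Wt, 0 genes of these lists passed in islets and 0 in NDL, here and under the 19 alternatives. Among 17 ligands, 7 could be tested, 1 rose in islets and 0 fell. The one that rose was Il10, ligand of Il10ra, at 284, 33.1 and 189 CPM in Lag3 islets, 152, 135 and 114 CPM in Wt islets, 0, 0 and 0.0748 CPM in Lag3 NDL and 7.80, 0 and 0 CPM in Wt NDL. All 6 islet libraries lay above all 6 NDL libraries (log2 difference 6.46 ± 0.88, limma adjusted p = 0.00048), whereas Il10ra itself differed by 0.46. Within Lag3-deficient cells Il10 also passed (adjusted p = 0.0245), a call lost under 10 of the 19 alternatives, with no filter on low values (0.0672), without the 1b columns (0.143) and on leaving out any 1 of the Lag3 islet libraries 1a (0.154) and 1b (0.0689), the Wt islet libraries 1a (0.0655), 2 (0.064) and 1b (0.0501) or the Lag3 NDL libraries 1a (0.0919), 2 (0.0764) and 1b (0.0512). Within Wt cells Il10 did not pass (limma adjusted p = 0.0569). There it passed with RLE size factors, the second deposited table and voom weights, and on leaving out Lag3 islet 2, Lag3 NDL 1b or Wt NDL 1a. The calls in both genotypes thus depend on the setting, and no contrast between genotypes is read from them.

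Ifng, ligand of Ifngr1, measured 48.2, 3.25 and 55.3 CPM in Lag3 islets, 25.5, 60.9 and 71.0 CPM in Wt islets, 2.59, 9.78 and 0.0748 CPM in Lag3 NDL and 7.62, 19.8 and 0 CPM in Wt NDL. It was high in 5 of the islet libraries, overlapped through Lag3 islet 2 and did not pass (2.92 ± 1.03, limma adjusted p = 0.246). Il1b, a ligand of the decoy receptor Il1r2, was above 1 CPM in 3 islet libraries, at 37.9 and 47.3 CPM in Lag3 islets 1a and 2 and 39.3 CPM in Wt islet 1b, and was listed at no more than 0.0748 CPM in the other 9 (2.69 ± 0.99, adjusted p = 0.271). Il33, the ligand of ST2, reached no more than 3.52 CPM in islet and 0.29 CPM in NDL libraries, and Il6 no more than 0.121 CPM in any.

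Among 12 feedback inhibitors and targets 1 rose and 0 fell. Areg, which encodes the tissue repair factor amphiregulin, measured 45.7, 17.5 and 130 CPM in Lag3 islets, 155, 66.3 and 58.1 CPM in Wt islets, 0.0959, 0 and 0 CPM in Lag3 NDL and 0.676, 0.485 and 15.6 CPM in Wt NDL. The tissues did not overlap (5.09 ± 0.93, limma adjusted p = 0.00855), although the lowest islet value, in Lag3 islet 2, was close to the highest NDL value, in Wt NDL 1b. Il1rl1 differed by 0.36 in the same comparison.

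In the remaining lists 0 genes passed in either direction, namely in 8 tested shared or accessory receptor chains, 9 genes of the MyD88 branch, 10 of the JAK and STAT branch, 8 of the SMAD branch, 12 other cytokine receptors and the 4 IL-2 receptor chains with Il7r. The medians of these lists ran from -0.54 for the shared chains to 0.34 for the JAK and STAT branch, against -0.04 over all genes. Ski, a repressor of SMAD factors, came nearest: it measured 29.1, 3.52 and 85.7 CPM in Lag3 islets, 60.0, 87.8 and 39.4 CPM in Wt islets, 183, 146 and 204 CPM in Lag3 NDL and 162, 172 and 197 CPM in Wt NDL. Its islet libraries lay below all NDL libraries, with a log2 difference of -2.26 ± 0.56 and an adjusted p of 0.0575 by limma. The call of Ski was gained with RLE size factors, the second deposited table and voom weights. It was also gained without Lag3 islet 2 (limma adjusted p = 0.0362) and without Lag3 islet 1b (0.0122). Other genes of these lists with small p-values were Acvr2a, an activin receptor (-2.54 ± 0.75, limma adjusted p = 0.137), and Il2ra, the high-affinity IL-2 receptor chain (-0.82 ± 0.31, adjusted p = 0.291). Acvr2a lay lower in all islet than in all NDL libraries, but near the floor, at no more than 0.293 CPM in islets. In NDL it measured 7.05, 3.78 and 83.4 CPM in Lag3-deficient and 0.737, 1.15 and 6.52 CPM in Wt cells. Osm, a ligand that signals through gp130, stood at -2.46 ± 0.84 (adjusted p = 0.228). Tgfbr1, the partner chain of Tgfbr2, differed by -1.13 ± 0.60 and Stat3, which gp130 activates, by 1.18 ± 0.50 (adjusted p = 0.499 and 0.366).

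Irak3, an inhibitor of the MyD88 branch, was highest in the 3 Wt islet libraries and passed no test. It measured 0, 0.441 and 0.139 CPM in Lag3 islets, 38.6, 62.9 and 13.8 CPM in Wt islets, 4.27, 0.126 and 0 CPM in Lag3 NDL and 1.23, 0.121 and 0 CPM in Wt NDL. The Wt islet libraries lay above all others. Myeloid markers summed to 14.4 to 42.6 CPM in Lag3 islets and 46.1 to 119 CPM in Wt islets, and their part in the Irak3 values was not tested. Lag3 against Wt in islets came to -4.83 ± 1.01 (unadjusted p = 0.000122, limma adjusted p = 0.662), the second smallest p of all genes in that comparison. Islet against NDL was -0.62 ± 1.01 in Lag3-deficient cells (adjusted p = 0.887) and 4.62 ± 1.01 in Wt cells (adjusted p = 0.0775). The difference of the genotype effects was -5.24 ± 1.43 (unadjusted p = 0.00156, adjusted p = 1), and the average over genotypes, 2.00 ± 0.71, joins these unlike values. None of these passed, and the genotype difference in islets and the tissue difference in Wt cells passed under 0 of the 19 alternatives (lowest adjusted p = 0.191 and 0.0516). In Lag3 against Wt in islets Csf2rb (-3.20 ± 1.00) and Tgfbr1 (-2.21 ± 0.85) also had an unadjusted p under 0.05 (limma adjusted p = 0.85 for both). Irak3, Csf2rb and Tgfbr1 were the only list genes to do so, where the share over all genes was 5.74%. They were 1 of 9 tested genes of the MyD88 branch, 1 of 12 other cytokine receptors and 1 of 8 shared or accessory chains. It was 0 of 7 ligands, 0 of 10 JAK and STAT, 0 of 8 SMAD, 0 of 12 feedback and 0 of 4 IL-2 receptor and Il7r genes. Nothing particular to these lists is read from these counts. Tgfbr1 measured 6.56, 18.1 and 188 CPM in Lag3 islets and 85.4, 166 and 188 CPM in Wt islets. Csf2rb measured 0.377, 0.330 and 0.0694 CPM in Lag3 islets and 29.3, 32.8 and 0.475 CPM in Wt islets.

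**Figure D4:**
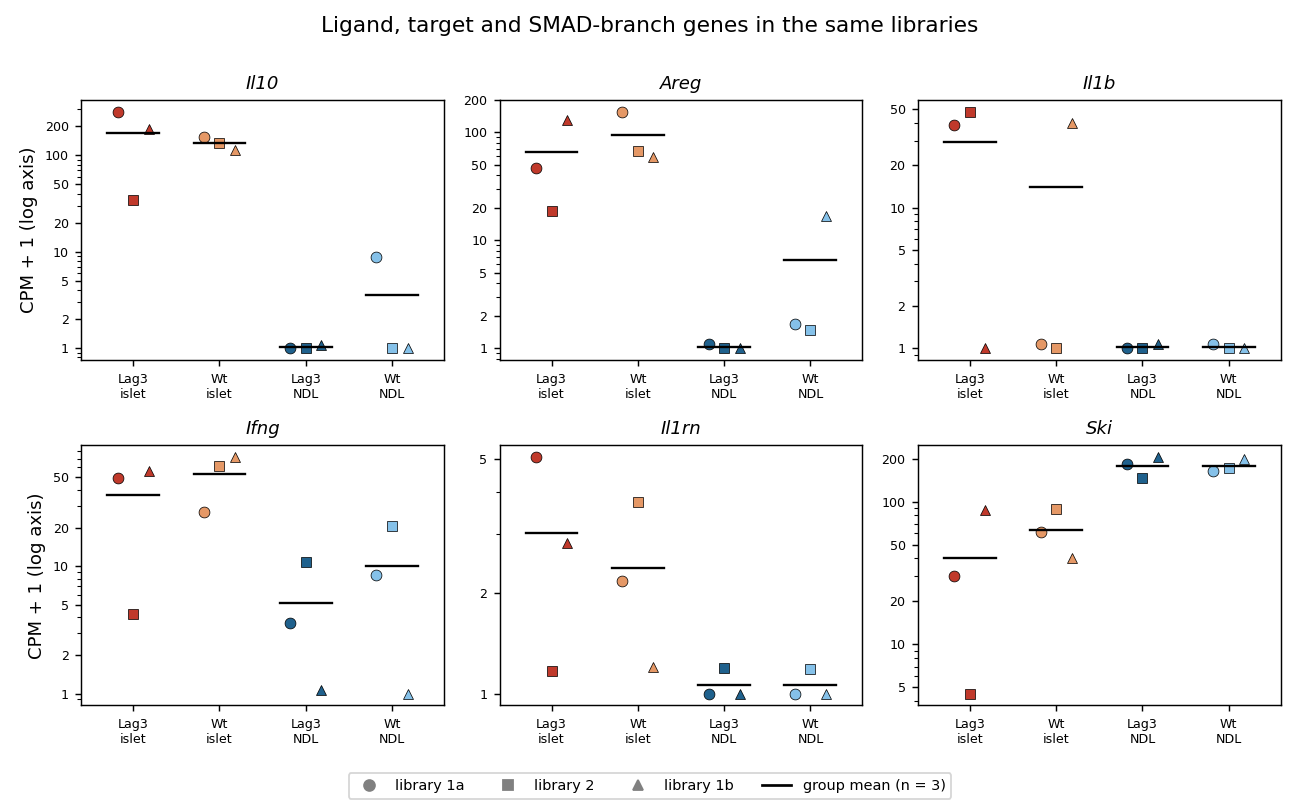
CPM + 1 (logarithmic y axis, scaled per gene) of the ligand genes Il10, Il1b, Ifng and Il1rn (an IL-1 receptor antagonist), of Areg and of Ski in the 12 libraries by group, with marks as for the receptor genes and bars for group means of 3. For Il10 and Areg the islet libraries all lie above the NDL libraries, for Ski all below, and Il1b is above 1 CPM in 3 islet libraries.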

How the data were processed

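RNA levels in 12 mouse Treg libraries were deposited as 2 gene tables. Both hold a signal that the authors had normalized: the first lists whole numbers rescaled to near-equal totals, and the second lists 10317 genes with near-equal quantiles. TopHat2, DESeq2 and mm10 are named in the submitters' processing notes, without versions or roles, and the sources used here do not give the counting and rescaling steps. As depth is unknown, no counting intervals are given. Column names give the group but repeat number 1 in each group, so columns are libraries of a group without a sample of their own.

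The first table was analysed with limma 3.58.1 in R 4.3.3 on log2(CPM + 1) with a mean-variance trend, after TMM scaling (30% of ratios and 5% of levels trimmed). The 10868 genes listed at 10 or more in 3 or more libraries entered 1 linear model of the 4 groups with no covariates, and each of 6 comparisons had its own Benjamini-Hochberg adjustment. A fold change on this scale understates that of weakly expressed genes, and a value of 0 is reported as listed. All 10 receptors passed the filter. The receptors, the lists, the named genes and the tests were chosen with earlier results of these data known. Named were all receptors, list genes that passed and up to 4 others per list by p. Genes of similar pattern were to be named for receptors that passed, and there were 0. The fit was also run on counts simulated with a fixed dispersion and no batch. These rescaled values need not follow such a model, so that run checks the code and not the calls made here.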

Additional observations from a re-analysis of the deposited data

How the results depend on the processing

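The count of receptors past the threshold was 0 in all 6 comparisons under each of the 19 alternatives run, which were RLE size factors, no filter on low values, a pseudocount of 0.25 CPM, the second deposited table, voom weights, a replicate block, leaving out the 1b columns and leaving out each of the 12 libraries. The lowest adjusted p of any receptor under an alternative was 0.0733, for Il1r2 between tissues with the second deposited table. Of the 60 log2 differences, 33 kept their sign throughout. No receptor that changed sign had passed in any fit.

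With RLE size factors the sign turned for Lag3 against Wt in islets Il21r at 0.20, in the difference of genotype effects Il10ra at 0.0091. With the second deposited table the sign turned for Lag3 against Wt in islets Il21r at 0.21, for islet against NDL in Lag3 Il1rl1 at 0.49, in the difference of genotype effects Il10ra at 0.81. With voom weights the sign turned for Lag3 against Wt in islets Il1rl1 at -0.10. Without the 1b columns the sign turned for Lag3 against Wt in islets Il1rl1 at -1.29 and Il10ra at -1.04, for Lag3 against Wt in NDL Il10ra at -1.02, Il6ra at 0.58 and Tgfbr2 at -0.090, for islet against NDL in Wt Tgfbr2 at 0.16, for islet against NDL in Lag3 Tgfbr2 at 0.21, for islet against NDL over both genotypes Il4ra at 0.011 and Tgfbr2 at 0.18, in the difference of genotype effects Tgfbr2 at 0.041. Leaving out 1 library at a time turned the sign of 23 differences, with these ranges. Lag3 against Wt in islets ran from -0.13 to 0.22 for Ifngr1, from -0.38 to 1.14 for Il10ra, from -0.067 to 0.58 for Il18r1, from -0.66 to 1.14 for Il1rl1, from -0.32 to 0.14 for Il21r and from -0.51 to 0.0048 for Tgfbr2. Lag3 against Wt in NDL ran from -0.41 to 1.67 for Il10ra, from -0.66 to 0.092 for Il18r1, from -0.67 to 0.11 for Il21r, from -1.18 to 0.31 for Il6ra and from -0.21 to 0.37 for Tgfbr2. The difference of genotype effects ran from -1.16 to 0.85 for Il10ra, from -1.75 to 0.043 for Il1rl1 and from -0.13 to 0.64 for Il21r. Islet against NDL over both genotypes ran from -0.066 to 0.97 for Il10ra and from -0.19 to 0.83 for Il1rl1. Islet against NDL in Lag3 ran from -0.34 to 1.01 for Il10ra, from -0.85 to 0.79 for Il1rl1 and from -0.999 to 0.50 for Il6ra. Islet against NDL in Wt ran from -0.49 to 1.55 for Il10ra, from -0.21 to 1.61 for Il1rl1, from -0.83 to 0.11 for Il6st and from -0.29 to 0.10 for Tgfbr2. The cause was not tested.

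Same-numbered libraries of different groups deviated together weakly at most, with correlations of deviations from the group means from -0.0857 to 0.157 over 18 pairs. The 2 above 0.1 were both between NDL libraries, 0.157 for 1a and 0.121 for 1b. Pairs of unlike number ran from -0.142 to 0.0893. Rn45s was also higher in the 1b columns. With so few libraries, correlations this weak cannot decide whether the numbers mark pairs or batches, and the main fit uses neither. With the replicate block 0 receptors passed and the lowest adjusted p was 0.123.

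Il10 and Areg between tissues over both genotypes passed under all 19 alternatives (adjusted p at most 0.0415 and 0.0481). Ski passed under 5 of them (0.0122 to 0.272 over all), namely RLE size factors, the second deposited table, voom weights and leaving out Lag3 islet 2 or 1b. Residual SDs of the tested genes had a median of 1.26 log2 units with 3 libraries a group. Il1rl1 and Il10ra, with SEs of 1.18 and 1.24 within a tissue, are the least bounded.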
